A study of Mus musculus with 6 samples.

Results

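The Piezo and acid-sensing ion channels of the dorsal root ganglion (DRG) were described from 10 genes, chosen by name: Piezo1, Piezo2, Asic1, Asic2, Asic3, Asic4, Stoml3, Tmem63a, Tmem63b and Tmem63c. Each symbol matched 1 row among the 47937 rows of the read count table. In DRGs of Tlx3cko mice Asic1 rose about 4-fold and Asic3 rose 1.72-fold. The transcripts of Piezo1, Piezo2, Asic2, Asic4, Tmem63a, Tmem63b and Tmem63c did not pass the test, and Stoml3 was at or near the detection floor in every library.

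The DRG holds the cell bodies of the sensory neurons that report touch, body position, itch, temperature and pain. Piezo channels open when the membrane is stretched, and Piezo2 is the main channel for light touch and proprioception in sensory neurons. The acid-sensing ion channels (ASICs) are sodium channels of the DEG/ENaC family that open when extracellular protons rise, as in inflamed or ischaemic tissue, and their subunits mix within a channel. Stoml3, a stomatin-domain membrane protein, tunes the sensitivity of mechanically gated currents and binds ASIC subunits. TMEM63 proteins are relatives of the plant OSCA channels and respond to membrane stretch or osmotic change.

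Total RNA of DRGs was sequenced in 3 control mice and 3 Tlx3cko mice, all on the C57BL/6 strain and about 2 months old. The Tlx3cko mice have the genotype Tlx3f/f;SNS-cre, in which floxed Tlx3 is removed by a Cre recombinase under the SNS (Nav1.8) promoter, which is active in most nociceptors, so Tlx3 can remain in other DRG neurons. Controls are labelled as wild type, and the study calls them controls. In its behavioural tests the study used Tlx3F/F littermates as controls. Whether the sequenced controls also carried floxed Tlx3 is not given in the sources used here. The ganglia came from cervical, thoracic and lumbar levels together and were not sorted, so fewer cells of a type and less RNA per cell cannot be told apart.

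The libraries held between 11458299 and 18775628 counts, and values are given as normalized counts, that is, counts scaled by edgeR's TMM method to the mean effective library of 14970767. Tlx3, the targeted gene, stood at 1973, 2256 and 1941 normalized counts in controls against 1652.5, 1380.4 and 1452 in Tlx3cko. Such counts cover the whole gene and do not measure how much working Tlx3 was lost. The groups did not overlap, with a log2 fold change of -0.46 (SE 0.09; edgeR QL adjusted p = 0.0122, where QL is the quasi-likelihood F test and the adjustment is Benjamini-Hochberg (BH) over all tested genes). The Tlx3 call did not hold with control 2, Tlx3cko 2 or Tlx3cko 3 left out (adjusted p 0.0606 to 0.0910), nor when sex was a term of the fit (adjusted p = 0.223). Xist was present in control replicate 1 (591 counts) and control replicate 2 (493), and the Y-linked Ddx3y was present in the remaining 4 libraries (273 to 525 counts), so control and Tlx3cko were unequal in sex. Summed over the 9 markers of all neurons, the libraries held 167730 to 179170 normalized counts in control and 170400 to 185510 in Tlx3cko, and 0 of these markers passed the test.

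Among the 20006 genes tested, 4.25% passed an adjusted p under 0.05, 1.69% as higher and 2.56% as lower in Tlx3cko. These were 339 higher and 512 lower genes, or 206 and 523 with the libraries scaled to neuronal genes. Of the 10 channel genes 9 had enough counts to be tested, of which 2 rose, 0 fell and 7 did not pass. The median log2 fold change of the 9 was -0.12, beside 0.00 over all genes tested. In 4 of the 9 genes the control and Tlx3cko libraries did not overlap, Asic1 and Asic3 being higher and Piezo2 and Tmem63a lower, while 19.7% of all genes tested showed no overlap, 8.87% as higher and 10.8% as lower. An exact two-sided permutation test of 3 libraries against 3 cannot give a p below 0.1, which is the value it gave for these 4 genes.

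**Figure D1:**
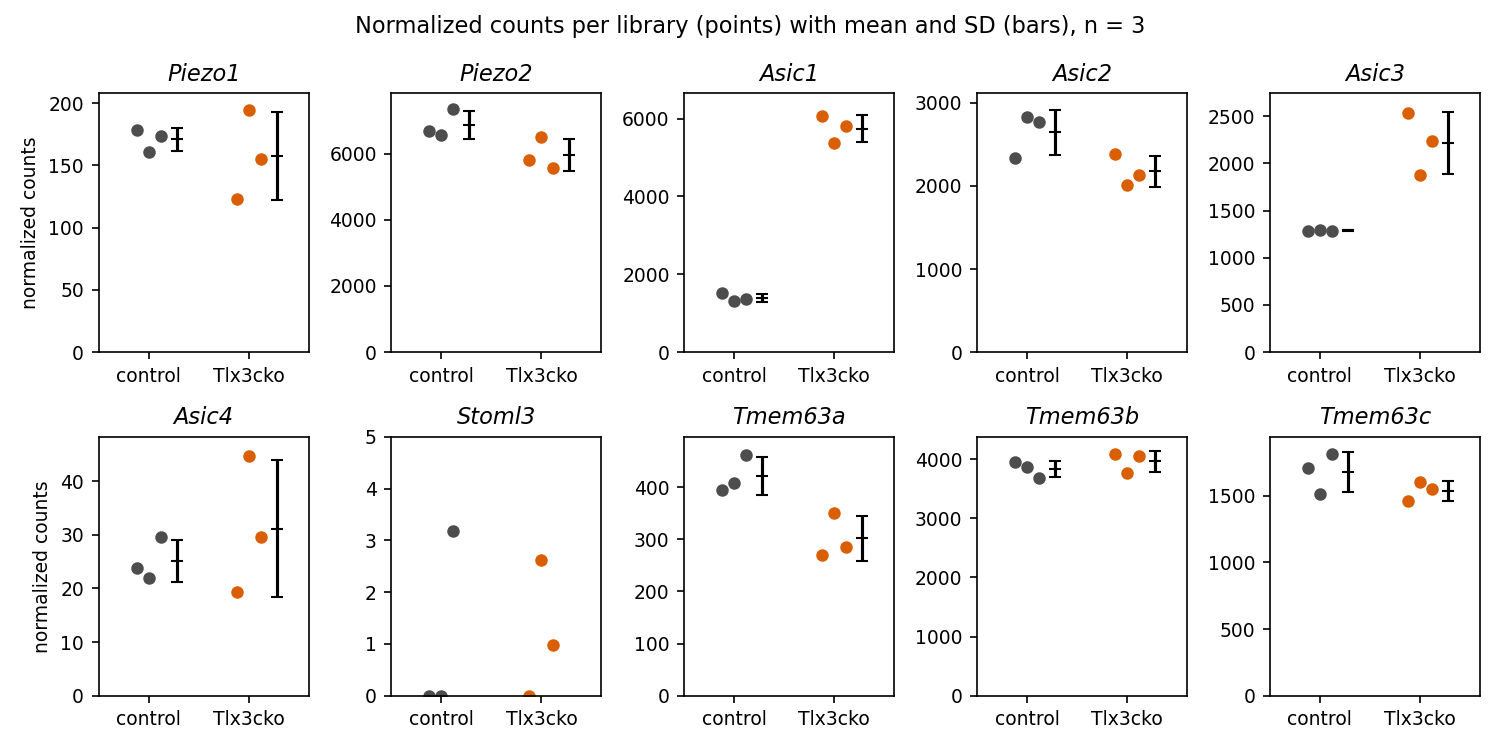
Normalized counts of the 10 channel genes, with each point a library, control and Tlx3cko side by side, and bars the mean and SD of 3 libraries (no bar for Stoml3, which was not tested). The 3 Tlx3cko points of Asic1 lie between 5377 and 6058, above the control points between 1316 and 1515.

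The acid-sensing channels held both rises. Asic1 (ENSMUSG00000023017, plus strand, chr15:99670368-99701130 on GRCm38) encodes a subunit that forms channels opened by modest acidification. It had 1515, 1316 and 1356 normalized counts in controls against 6058, 5377 and 5798.5 in Tlx3cko. Every Tlx3cko library stood far above every control library. The group values were 1396 ± 106 for control and 5744.5 ± 343 for Tlx3cko (SD, n = 3 each), a fold of 4.12 with a 95% interval of 3.63 to 4.67. On the log2 scale it moved by 2.04 (SE 0.08, edgeR QL adjusted p = 2.60e-08). Asic1 ranked 25th by log2 fold change among the 339 genes that rose, and 3rd by p among all 20006.

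Asic3 (ENSMUSG00000038276, plus strand, chr5:24413392-24417835) encodes the subunit best known from sensory neurons, where it contributes to acid-evoked pain from muscle, heart and joint. Its control libraries were close together, at 1288, 1298 and 1289 normalized counts, and its Tlx3cko libraries had 2538, 1882 and 2238. All Tlx3cko values lay above all control values, with a wider spread among them. The means were 1291 ± 5.35 (SD, n = 3) and 2219 ± 329 (SD, n = 3), a fold of 1.72 with a 95% interval of 1.48 to 2.00. On the log2 scale it moved by 0.78 (SE 0.10, edgeR QL adjusted p = 0.000499). Asic3 thus stood below the 2-fold mark that Asic1 passed.

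Asic1 and Asic3 are the members that rose together, so the windows around their annotated starts are shown, 250 bases before to 50 after the start, from RefSeq on GRCm38.p6. Capitals mark TAAT, the core letters of many homeodomain binding sites (Tlx3 is a homeodomain protein), on either strand (TAAT or ATTA).
Asic1, chr15:99691974-99692273, plus strand: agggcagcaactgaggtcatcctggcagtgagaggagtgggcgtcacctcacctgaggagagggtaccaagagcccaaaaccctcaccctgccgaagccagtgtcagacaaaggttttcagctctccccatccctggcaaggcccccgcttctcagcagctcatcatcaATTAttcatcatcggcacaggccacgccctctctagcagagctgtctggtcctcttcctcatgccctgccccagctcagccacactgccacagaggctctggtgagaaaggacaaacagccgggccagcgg
Asic3, chr5:24413201-24413500, plus strand: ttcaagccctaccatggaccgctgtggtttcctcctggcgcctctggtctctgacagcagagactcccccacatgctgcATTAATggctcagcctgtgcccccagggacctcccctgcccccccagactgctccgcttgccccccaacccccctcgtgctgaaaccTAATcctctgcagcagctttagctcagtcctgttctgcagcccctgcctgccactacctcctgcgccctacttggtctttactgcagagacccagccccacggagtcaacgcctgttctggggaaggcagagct

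The Asic1 window held 1 match, starting at position -81 from the start site, and the Asic3 window held 3, at -171, -169 and -84, the first pair overlapping. TAAT on either strand was present in 58.0% of all 32851 promoter windows of this length, so a match in both is common among such windows. Neither window held GGGCGG, found in 35.7% of windows, or TATAAA, found in 13.6%, each searched on both strands. The GC content was 59.7% for Asic1 and 62.0% for Asic3, beside a median of 52.7% over all windows. A match describes letters and is not evidence of binding. The Asic1 window lies at an internal start, close to that of the GENCODE transcript Asic1-205 at position 99692233, whereas Asic1-201 begins at 99670368, and the counts per gene do not separate these transcripts. The start used for Asic3 is that of Asic3-204 at 24413451, a transcript annotated as retaining an intron. The protein-coding transcripts Asic3-201 and Asic3-202 begin at 24413392 and 24413712. Windows on chromosome 18, where Piezo2 lies, were left out, so Piezo2 was not examined for these letters. Of the 10 genes, 8 had a window that was used, some with 2 windows. Among those that did not pass or were not tested, TAAT matched 3 times in 1 of the 2 windows of Tmem63c, 2 times in 1 of the 2 of Asic2, and 1 time each in Tmem63a and Stoml3, and 0 times in Piezo1 and Tmem63b.

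Asic2 (ENSMUSG00000020704, minus strand, chr11:80880169-81968457) encodes a subunit that modulates the acid sensitivity of mixed channels. It had 2331, 2831.5 and 2768 normalized counts in controls against 2381, 2014 and 2134 in Tlx3cko. The highest Tlx3cko library lay just above the lowest control library, so the groups overlapped. The means were 2644 ± 272 and 2176 ± 187 (SD, n = 3 each), and the log2 change was -0.28 (SE 0.09, 95% interval -0.48 to -0.08, unadjusted p = 0.0108, edgeR QL adjusted p = 0.142). The intervals given here are for single genes and are not adjusted for the number of genes. Asic2 passed the threshold when control replicate 1 was left out, at -0.36 on the log2 scale (adjusted p = 0.0384).

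Asic4 (ENSMUSG00000033007, plus strand, chr1:75450436-75474343) encodes a subunit that is not opened by protons on its own. Its raw counts were only 22, 22 and 37 for controls against 20, 34 and 30 for Tlx3cko, and the log2 change of 0.29 carried a 95% interval from -0.54 to 1.12 (edgeR QL adjusted p = 0.827). At this depth a 2-fold rise lies within that interval. Its direction turned without Tlx3cko replicate 2, to -0.04. Gm37264 on the opposite strand covers 18.1% of its exonic bases and had between 6 and 15 counts per library, and whether strand was used in counting is not given in the sources used here.

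**Figure D2:**
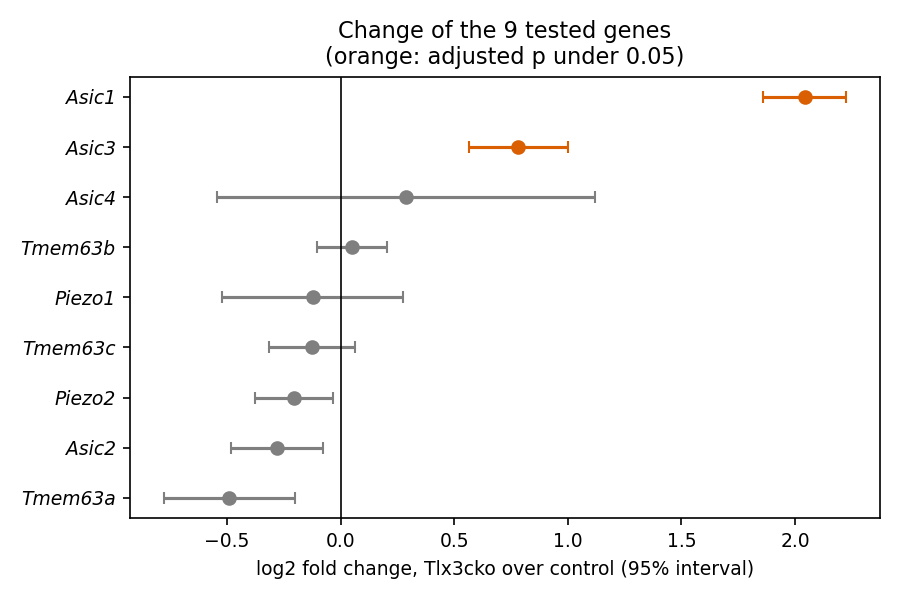
Log2 fold changes of Tlx3cko against control for the 9 tested channel genes, with 95% intervals from the edgeR fit. Asic1 at 2.04 and Asic3 at 0.78 are the genes past the threshold; those of Piezo1, Asic4, Tmem63b and Tmem63c include 0.

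The make-up of the ASIC transcripts was computed from levels per length, that is, counts per kilobase of annotated exon scaled by library size (RPKM), the scale on which different genes can be compared. The summed level of the 4 ASIC genes was 90.2, 96.0 and 95.4 in controls against 178, 147 and 163 in Tlx3cko. The sum was thus higher in each Tlx3cko library (93.9 ± 3.16 against 162.9 ± 15.6, SD, n = 3 each; exact permutation p = 0.1, the smallest the design allows). Asic1 made up 19.5%, 16.0% and 16.5% of this level in control and 39.6%, 42.5% and 41.3% in Tlx3cko. Asic2 made up 40.5%, 46.2% and 45.5% in control and 20.9%, 21.5% and 20.5% in Tlx3cko. Asic2 thus had the largest share in each control library and Asic1 in each Tlx3cko library, by about 1 percentage point over Asic3 in control 1 and by less than 1 in Tlx3cko 1. Both shares were without overlap between the groups (exact permutation p = 0.1 each), and both comparisons were chosen after the values were seen. The share of Asic3 was 39.3%, 37.3% and 37.3% in control and 39.3%, 35.3% and 37.8% in Tlx3cko, a difference of -0.52 percentage points that was smaller than the spread between libraries (exact two-sided permutation p = 0.8). Asic4 made up less than 1% in every library. These shares are of RNA in whole ganglia and do not say which subunits share a cell.

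**Figure D3:**
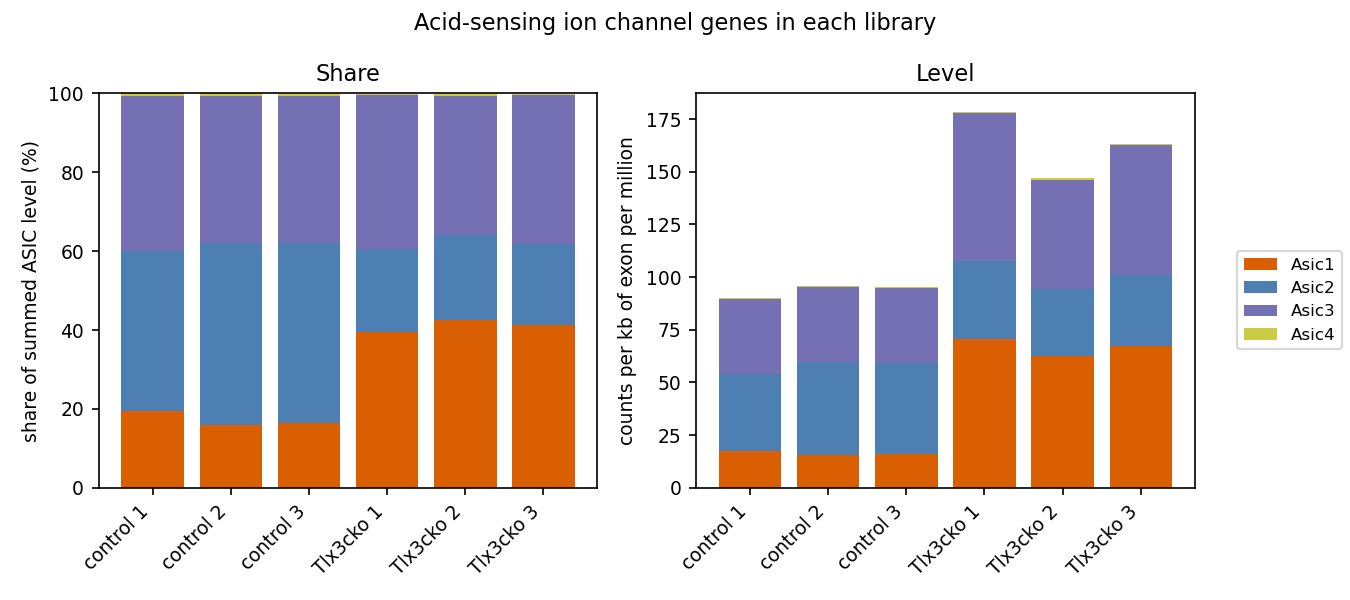
Asic1, Asic2, Asic3 and Asic4 in each of the 6 libraries as stacked bars, on the left as percent of their summed level and on the right as levels in library-scaled counts per kilobase of exon. The Asic1 share moves from 16.0–19.5% in control to 39.6–42.5% in Tlx3cko, and the Asic2 share from 40.5–46.2% to 20.5–21.5%.

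The Piezo channels did not pass the test. Piezo2 (ENSMUSG00000041482, minus strand, chr18:63010213-63387183) had 6677, 6558 and 7348 normalized counts in controls against 5818, 6493 and 5554.5 in Tlx3cko. The lowest control library lay just above the highest Tlx3cko library, so the groups did not overlap. The means were 6861 ± 426 and 5955 ± 484 (SD, n = 3 each), with a log2 change of -0.20 (SE 0.08, 95% interval -0.38 to -0.03, unadjusted p = 0.0238, edgeR QL adjusted p = 0.233). Over the 16 refits with another tool, scaling, filter, model term or set of libraries, it stayed between -0.30 and -0.15 and passed the threshold in 0 of them.

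Piezo1 (ENSMUSG00000014444, minus strand, chr8:122481698-122551329) is the Piezo channel best known from blood vessels and red cells. It had 178, 161 and 174 normalized counts in controls against 123, 194 and 155 in Tlx3cko. The Tlx3cko libraries lay on both sides of the control libraries. The means were 171 ± 9.15 and 158 ± 35.6 (SD, n = 3 each), with a log2 change of -0.12 (95% interval -0.52 to 0.27, edgeR QL adjusted p = 0.849), with its direction turning without Tlx3cko replicate 1, to 0.03. Ctu2, a transfer RNA modification gene on the opposite strand, covers 24.6% of the exonic bases of Piezo1. Its own values were 246.5 ± 20.04 and 246.9 ± 35.1 normalized counts (SD, n = 3 each). If strand was not used in counting, reads in the shared bases cannot be assigned to either gene. How far this touches the Piezo1 values and the ratio below was not tested. Per length, Piezo2 stood 23.3 ± 1.42 times above Piezo1 in control and 22.5 ± 4.28 times in Tlx3cko (SD, n = 3 each; exact permutation p = 0.8). The size of this ratio depends on the length used. With the longest annotated transcript as length, mean levels of Piezo2 and Piezo1 were 42.7 and 1.39 in control and 37.1 and 1.28 in Tlx3cko.

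Stoml3 (ENSMUSG00000027744, plus strand, chr3:53488653-53508502) was counted 0, 0 and 4 times in controls against 0, 2 and 1 in Tlx3cko. It did not reach the minimum of 10 counts over the 6 libraries and was not tested. Both groups were near the floor of 3 counts per library, so no fold is given, and a difference was not detectable at this depth.

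Of the TMEM63 genes, Tmem63a (ENSMUSG00000026519, plus strand, chr1:180942344-180975112) came nearest to the threshold. It had 394, 409 and 463 normalized counts in controls against 269, 350.4 and 285 in Tlx3cko, without overlap. The means were 422 ± 36.1 and 302 ± 42.8 (SD, n = 3 each), and the log2 change was -0.49 (SE 0.13, 95% interval -0.78 to -0.20, unadjusted p = 0.00281, edgeR QL adjusted p = 0.0592). It passed with DESeq2 (adjusted p = 0.0273), with limma-voom (adjusted p = 0.0439) and without a filter on low counts (adjusted p = 0.0106). An antisense gene overlaps 3.50% of its exonic bases.

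Tmem63b (ENSMUSG00000036026, minus strand, chr17:45660171-45686905) was the most abundant channel gene per length in control. It had 3945, 3870 and 3677 normalized counts in controls against 4080, 3759.5 and 4057 in Tlx3cko. The groups overlapped, with a log2 change of 0.05 (SE 0.07, 95% interval -0.11 to 0.21, edgeR QL adjusted p = 0.839). Genes on the opposite strand, Gm16172 and Mrpl14, cover 7.73% of the exonic bases of Tmem63b. Tmem63c (ENSMUSG00000034145, plus strand, chr12:87021340-87090043) had 1706.5, 1515 and 1815 in control and 1458, 1607 and 1550.0 in Tlx3cko. Its groups overlapped too, with a log2 fold change of -0.13 (SE 0.09, 95% interval -0.32 to 0.06, adjusted p = 0.599).

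Ordered by level per length, the control libraries ran from Tmem63b (50.2 ± 1.81 RPKM, SD, n = 3) through Asic2 (41.4 ± 4.26), Asic3 (35.6 ± 0.148), Tmem63c (27.4 ± 2.48), Piezo2 (26.7 ± 1.66), Asic1 (16.2 ± 1.23), Tmem63a (6.27 ± 0.537) and Piezo1 (1.15 ± 0.0615) to Asic4 (0.614 ± 0.0969). Tmem63c and Piezo2 overlapped between libraries, and the other neighbours did not. In Tlx3cko the order began with Asic1 (66.8 ± 3.99), Asic3 (61.2 ± 9.06) and Tmem63b (52.0 ± 2.34). Asic3 overlapped both Asic1 and Tmem63b there, so these neighbours cannot be ordered beyond their spread. Asic1 stood 6th of the 10 genes in control and 1st in Tlx3cko by mean level. With the longest annotated transcript as the length, Piezo2 moved up to 3rd in control, since its exon union is much longer than its longest transcript.

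Markers of the sensory neuron types moved with genotype in the same libraries, and their part in the channel values was not tested. The 6 listed markers of peptidergic neurons summed to 23891 to 25187 normalized counts in control and 39361 to 42611 in Tlx3cko, with 3 higher, Calca and Trpv1 among them, and 0 lower past the threshold. Of the 3 that did not pass, Kit had a log2 fold change of -0.36 without overlap between the groups (adjusted p = 0.0571), Adcyap1 one of -0.15 with overlap (adjusted p = 0.586), and Tac1 one of 0.55 without overlap (adjusted p = 0.0611). Of 9 markers of A-fibre touch and proprioceptor neurons 3 were higher (Pvalb, Nefh and Calb1), and their sum went from 34170 to 37157 in control to 43488 to 45089 in Tlx3cko. All 5 markers of C-fibre touch neurons were lower, summing to 1888 to 3429 in control and 704 to 887 in Tlx3cko, with Th, which encodes an enzyme of catecholamine synthesis, at -2.91 on the log2 scale. All 6 markers of non-peptidergic NP1 neurons were lower, summing to 10800 to 15035 in control and 4512 to 5254 in Tlx3cko, as were 6 of 7 of NP2 and NP3 neurons, summing to 2029 to 2446 and 432 to 503. Nppb of the last list was at or below 3 counts in each Tlx3cko library. These calls use the same edgeR QL test at a BH-adjusted p under 0.05.

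Markers of other tissues were also counted. Of the lists for satellite glia, Schwann cells, immune cells and blood, 0 of 5 genes each passed the test. Pecam1 was the 1 higher gene of the 5 endothelial markers, and Col1a1, Dcn and Pdgfra were the 3 lower genes of the 5 fibroblast markers. The 5 skeletal muscle markers summed to 102 to 1567 normalized counts in control and 1323 to 2785 in Tlx3cko, with Myh4 higher past the threshold. Of the 5 spinal cord markers 2 had enough counts to be tested and 0 passed, and the oligodendrocyte gene Mog had at most 2 counts in any library. With 1 library left out, Pvalb did not pass without control 2 or control 3 (adjusted p 0.0592 and 0.0557), Myh4 without control 2 (0.0611), Pecam1 without control 3, Tlx3cko 2 or Tlx3cko 3 (0.0823 to 0.0991), and Pdgfra in any but the fit without control 2 (0.0620 to 0.154). By normalized counts not scaled by length, which do not order the genes by level, the gene with the largest control mean in the marker lists other than Schwann cells was Nefh, Th, P2rx3, Osmr, Calca, Tubb3, Apoe, Cdh5, Dcn, Csf1r, Hba-a1, Acta1 and Slc1a2, in the order A-fibre, C-fibre touch, NP1, NP2 and NP3, peptidergic, all neurons, satellite glia, endothelial, fibroblast, immune, blood, muscle and spinal cord. With the libraries scaled to the neuronal markers, Asic1 stood at 2.01 and Asic3 at 0.74 on the log2 scale, and both passed the threshold. With sex as a term of the fit, which leaves control replicate 3 as the control of the same sex, Asic1 stood at 2.08 (adjusted p = 9.88e-06) and Asic3 at 0.79 (edgeR QL adjusted p = 0.0180).

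Genes that act with these channels, or are related to them by family or function, were read from 8 lists. The lists held 52 genes, of which 47 were tested. Of these 2 fell and 0 rose, beside 2.56% of all genes tested that fell and 1.69% that rose, and their median log2 fold change was 0.02. The first was Stom, which encodes stomatin, a membrane protein related to Stoml3 that can modulate ASIC currents, depending on the subunit. It had 348, 226 and 424 normalized counts in controls against 120.3, 105 and 135 in Tlx3cko, and fell by 1.47 on the log2 scale (SE 0.21, edgeR QL adjusted p = 0.00119). Every Tlx3cko library lay below every control library. The other was Kcnk3, an acid-inhibited K2P potassium channel also called TASK. It had 450.1, 483 and 516 normalized counts in controls against 347, 378 and 290.3 in Tlx3cko, and fell by 0.52 (SE 0.13, adjusted p = 0.0357). Leaving out any library but control replicate 1 took the adjusted p of Kcnk3 above 0.05 (adjusted p 0.0546 to 0.184), so 5 of 6 such fits lost it.

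The other lists held no gene past the threshold. They were the remaining DEG/ENaC channels (1 of 4 tested), Piezo partners and modulators (8 of 8), the TMC channel complex (11 of 11), other proton sensors (6 of 6), ASIC scaffolds (7 of 7) and the touch end organ and tether (4 of 6). Their most abundant genes per length were Scnn1a at -0.70, the calcium pump Atp2a2 at 0.22, Cib2 at 0.02, the proton-activated chloride channel Pacc1 at -0.16, the scaffold Nherf1 at 0.14 and the basement membrane gene Nid1 at 0.14, all log2 fold changes that did not pass. Stoml1, the most abundant of the stomatin-domain list, stood at -0.18 (adjusted p = 0.410).

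**Figure D4:**
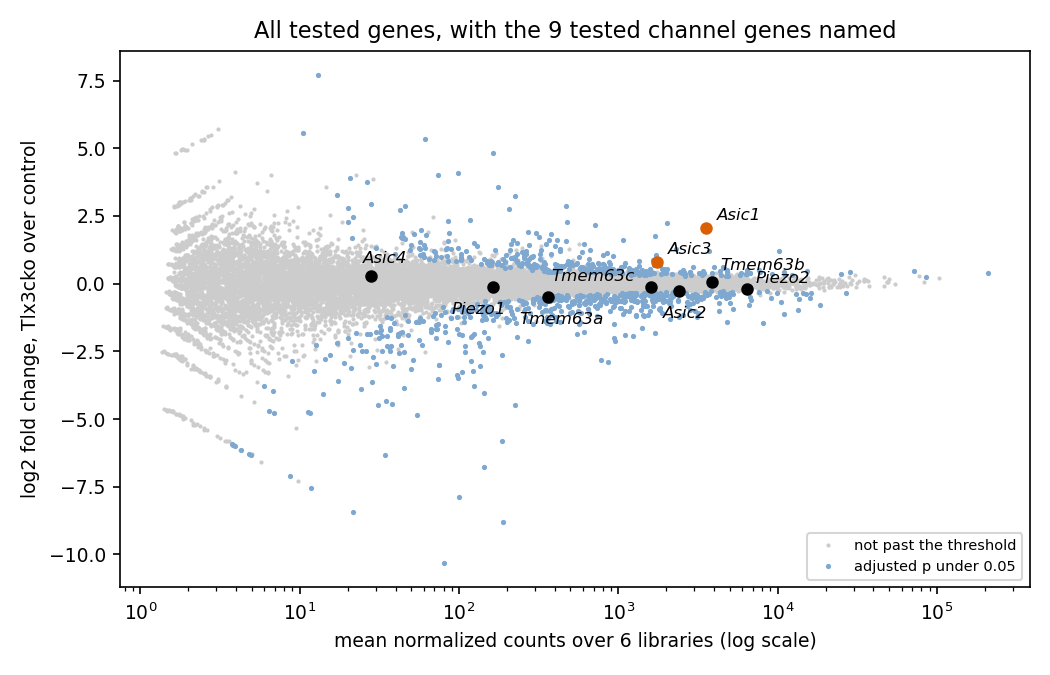
Log2 fold change (Tlx3cko against control) for the 20006 tested genes, in blue where the adjusted p is under 0.05 and otherwise in grey, against the mean of normalized counts on a log axis, with the 9 tested channel genes named. Asic1 (2.04) and Asic3 (0.78), in orange, lie above 0, and the other 7, in black, lie between -0.49 (Tmem63a) and 0.29 (Asic4).

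The nearest tested protein-coding gene lying wholly to each side of the 9 tested channel genes was examined, a choice made after the results were seen. Genes that overlap a channel gene, such as Ctu2 with Piezo1 and Mrpl14 with Tmem63b, were not eligible. Of the 18 genes examined 4 rose and 0 fell, beside 1.69% of all genes tested that rose. That share covers tested genes of every type and level, while these 18 are protein-coding, so the comparison is not like for like. Among the 4, the calls of Abcb8 and Vegfa did not hold in several refits, given below. A link between neighbouring genes was not tested. Racgap1, a regulator of cell division, lies 18.7 kb to the left of Asic1 on the opposite strand. Its raw counts were 141, 119 and 215 for controls against 469, 378 and 533 for Tlx3cko, moving by 1.73 on the log2 scale (SE 0.15, edgeR QL adjusted p = 2.04e-05). Smarcd1, 0.999 kb to the right of Asic1, stood at -0.02 (adjusted p = 0.965). Thus the neighbour on one side of Asic1 rose and the nearer one on the other side did not pass.

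Abcb8, a mitochondrial transporter gene, lies 3.34 kb to the left of Asic3 on the same strand. Its raw counts were 772, 688 and 946 for controls against 1340, 719 and 1079 for Tlx3cko, and its log2 fold change of 0.54 (SE 0.12, adjusted p = 0.0221) did not pass without control 2, control 3, Tlx3cko 1 or Tlx3cko 3 (adjusted p 0.0597 to 0.102), nor with the sex term (0.200). Cdk5, 0.406 kb to the right of Asic3, stood at 0.02 (adjusted p = 0.950). The other neighbours that rose were Zdhhc22, 30.9 kb from Tmem63c (log2 fold change 1.09, SE 0.15, adjusted p = 0.000734), and Vegfa, 330 kb from Tmem63b (0.54, SE 0.13, adjusted p = 0.0275, not passing without control 2, control 3, Tlx3cko 2 or Tlx3cko 3, at adjusted p 0.0757 to 0.147, nor with the sex term or neuronal scaling, at 0.278 and 0.0899). Within 200 kb of Asic1, 2 of 11 tested genes rose, Racgap1 and Faim2 (log2 fold change 0.63, SE 0.08, adjusted p = 0.000387), and 0 fell. Within 200 kb of Asic3, Abcb8 was the 1 gene of 19 that rose, and 0 fell.

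**Figure D5:**
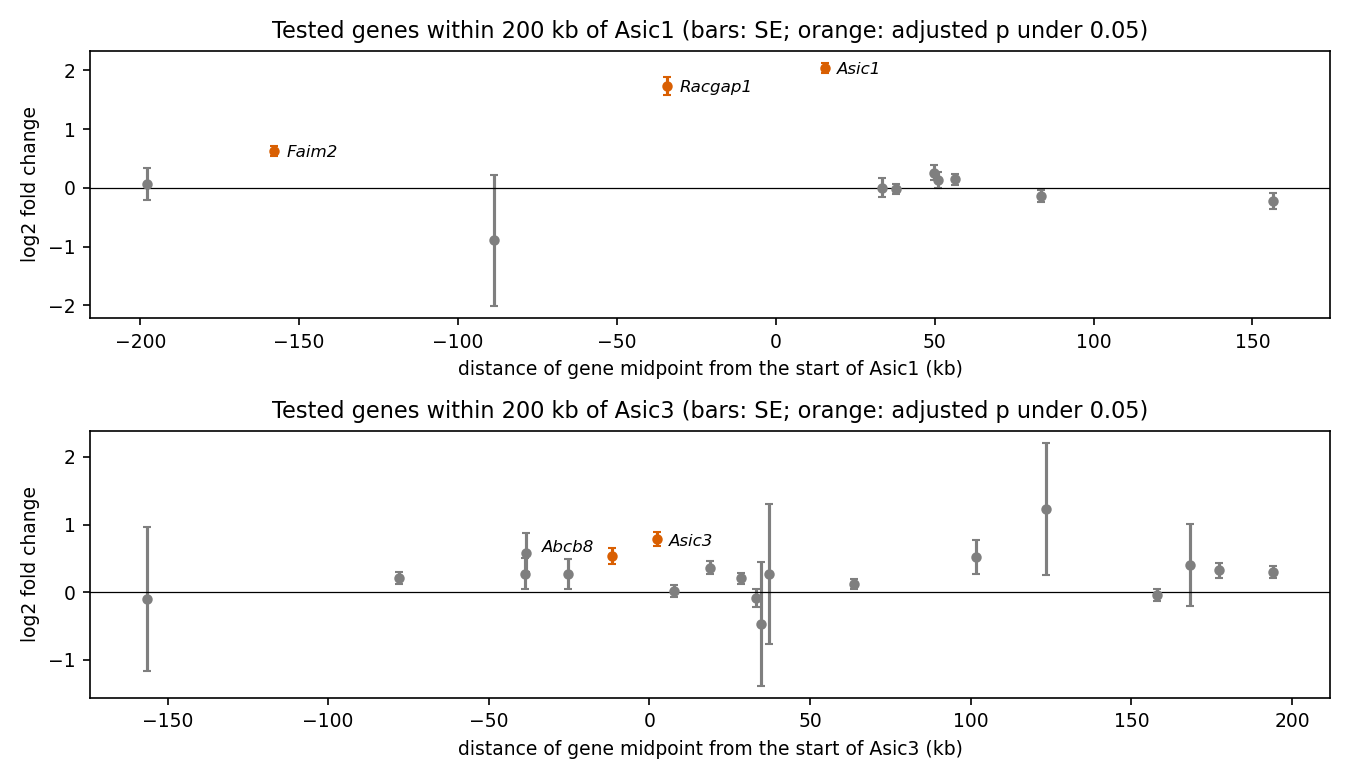
Log2 fold changes of the tested genes within 200 kb of Asic1 and of Asic3 against the distance in kb of each gene's midpoint from the start of the channel gene, with bars the SE and orange points those with an adjusted p under 0.05. Racgap1 and Faim2 stand above 0 beside Asic1, and Abcb8 beside Asic3, while the nearest genes Smarcd1 and Cdk5 lie near 0.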

How the data were processed

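RNA of pooled-level DRGs, 3 control and 3 Tlx3cko libraries, was sequenced with paired-end reads of 150 bases. The authors deposited raw read counts per gene for each library, without normalization. The submitters' processing notes name STAR 2.5.2a and mm10, and the counting program and its use of strand are not given in the sources used here. The study names a NEBNext Ultra RNA kit for the libraries and mentions no step that keeps strand. The columns were matched to samples by their titles. Of the 47937 rows, 47729 carry Ensembl identifiers; the 208 loci outside the annotation took 0.199% to 0.269% of counts. Symbols and positions are from GENCODE M21 on GRCm38.

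The 20006 genes reaching 10 counts summed across libraries were scaled by TMM (factors 0.994 to 1.01) and tested with edgeR 4.0.16 (glmQLFit and glmQLFTest, R 4.3.3), adjusted by Benjamini-Hochberg over all genes. The common biological coefficient of variation was 0.138. Replicates of a group differed beyond counting noise (chi-square per degree of freedom 4.32 to 10.1). Per the study's methods the 3 libraries of a genotype came from separate mice; the labels do not say whether ganglia were pooled. Shares and ratios used exact two-sided permutation tests. The members, lists and marker genes were chosen with earlier results of these data known. Named genes were Tlx3, all members, pathway genes past the threshold, the most abundant gene of each list, and the marker that moved most in each list with a call. Some genes this rule covers are left out of this text. In simulated counts with 200 changed genes among 19613, 98.5% of 4-fold, 77.6% of 2-fold and 34.3% of 1.5-fold changes were recovered, and 9.09% of calls were false. Alternatives covered DESeq2 1.42.0, limma-voom (limma 3.58.1), other scalings, filters and thresholds, a sex term, a replicate block and leaving out single libraries.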

Additional observations from a re-analysis of the deposited data

How the results depend on the processing

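Asic1 and Asic3 stayed past the threshold in the same direction in all 16 refits, with log2 fold changes of 2.00 to 2.10 and 0.68 to 0.90. Asic3 did not reach the added 2-fold requirement. Asic2 and Tmem63a passed in 2 and 3 of the 16, and Piezo2, Tmem63b and Tmem63c in 0. Signs reversed, with no value past the threshold, for genes near 0. With 1 library left out, log2 fold changes ran from -0.285 to 0.0294 (Piezo1), -0.0365 to 0.546 (Asic4), -0.0630 to 0.0937 (Cib2), -0.0527 to 0.0384 (Smarcd1), -0.0474 to 0.0889 (Cdk5), -0.120 to 0.0820 (Ctu2) and -0.197 to 0.458 (Gm37264). With neuronal scaling Cib2 stood at -0.0195, Cdk5 at -0.0148 and Ctu2 at -0.0347, and with the sex term Nid1 at -0.0168, Smarcd1 at 0.0583 and Gm37264 at -0.0377. Ctu2 stood at -0.00343 by library total and -0.0027545 with the replicate block.

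The 851 genes past the threshold became 1529 with no filter on low counts, 487 with the sex term, 418 at an adjusted p under 0.01, 315 at 2-fold or more, and 488 to 938 with 1 library left out, falling most without control 2 (530.0), Tlx3cko 2 (488) or Tlx3cko 3 (512). DESeq2 gave 1149. The split of 512 lower and 339 higher became 523 and 206 with scaling to neuronal genes. The 2 channel genes past the threshold became 4 with no filter and 1 at 2-fold or more, and stayed at 2 to 3 with 1 library left out. The 2 pathway genes became 1 with the replicate block, with the sex term, at an adjusted p under 0.01, and at 2-fold or more, and were 1 to 2 with 1 library left out. Same-numbered libraries did not deviate together (correlations -0.134, -0.0095 and -0.116). With 3 libraries per group this cannot settle pairing, and the sources used here do not say whether samples were paired by number. With the replicate block 770.0 genes, 2 channel genes and 1 pathway gene passed. The Asic1 share difference of 23.8 percentage points was 26.0 with the longest transcript as length and 30.4 without length scaling, both chosen after seeing the data. The causes of these differences were not tested. Low counts limit Asic4 and Stoml3.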
